A study of Mus musculus with 36 samples.

Results

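Pendrin and goblet cell genes were followed in the lungs of mice that had received titanium dioxide nanoparticles. The 7 genes are Slc26a4, Retnlb, Muc5ac, Muc5b, Spdef, Agr2 and Foxa3. They were found by matching the RefSeq accession of each array probe to these symbols. All 7 were among the 36799 gene names on the arrays, each with 1 probe, and 6 of the 7 were among the 23244 genes bright enough to test. Foxa3 was not.

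The series held lung RNA of 29 female C57BL/6 mice, 5 to 7 weeks old, on 36 arrays. Each mouse received one intratracheal instillation, in 40 µl, of tube-shaped TiO2 nanoparticles at 18, 54 or 162 µg, or at 0 µg as the control, and its lung was taken at day 1 or day 28. At day 1 there were 3 mice at 18 µg, 3 at 54 µg, 4 at 162 µg and 4 controls. At day 28 there were 4 mice at each of 18, 54 and 162 µg and 3 controls. The labels say that RNA was extracted from random sections of the organ, so a value describes one piece of a lung. On every array lung RNA carried Cy5 and a reference RNA of 11 mouse cell lines carried Cy3. A level below is the normalised log2 ratio of the 2 dyes, and a change is the difference of the group means of that ratio. Each change was tested with limma, two-sided, and counted as called where its p-value, adjusted over all 23244 genes by the Benjamini-Hochberg method, was below 0.05.

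Slc26a4 encodes pendrin, an exchanger in the apical membrane that moves chloride, iodide, bicarbonate and thiocyanate. It is best known from the thyroid, inner ear and kidney, and in the airway it is induced by interleukin-13 and interleukin-17 and by bacterial infection. Goblet cells of the airway make the gel-forming mucins Muc5ac and Muc5b. In mice they arise largely from club cells, through the transcription factors Spdef and Foxa3. Agr2, a protein disulfide isomerase of the endoplasmic reticulum, is needed for mucin folding, and Retnlb (RELM-beta) is a secreted resistin-like protein of goblet cells, best known in the gut.

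Slc26a4 varied with dose and Agr2 and Spdef varied together from mouse to mouse, so the DNA before one annotated start of each is shown, with that of Lcn2, a gene whose levels followed those of Slc26a4. The RefSeq table of build GRCm38.p6 held 4 of the 7 members, of which Foxa3 is not shown. It also held 4 of the 5 genes most alike Slc26a4 over the mice, of which Lcn2 alone is shown. Each stretch is the 250 bases before the start, 5′ to 3′ on the gene's strand, and capitals mark matches to the motifs searched. The Spdef stretch lay wholly inside the annotated span of that gene, 27714446 to 27731003. The Slc26a4 stretch lay partly inside its gene, whose span ends at 31560055.
Slc26a4, chr12:31559985-31560234, minus strand: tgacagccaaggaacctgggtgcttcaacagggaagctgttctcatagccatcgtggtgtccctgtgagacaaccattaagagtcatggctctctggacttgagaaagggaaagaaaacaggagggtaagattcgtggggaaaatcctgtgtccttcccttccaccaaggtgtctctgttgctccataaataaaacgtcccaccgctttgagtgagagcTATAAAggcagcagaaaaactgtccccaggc
Lcn2, chr2:32387740-32387989, minus strand: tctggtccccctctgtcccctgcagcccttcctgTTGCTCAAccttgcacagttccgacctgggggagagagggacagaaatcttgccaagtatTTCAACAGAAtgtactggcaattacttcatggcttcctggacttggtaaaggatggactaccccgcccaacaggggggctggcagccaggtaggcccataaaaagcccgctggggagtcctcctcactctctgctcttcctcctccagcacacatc
Agr2, chr12:35992675-35992924, plus strand: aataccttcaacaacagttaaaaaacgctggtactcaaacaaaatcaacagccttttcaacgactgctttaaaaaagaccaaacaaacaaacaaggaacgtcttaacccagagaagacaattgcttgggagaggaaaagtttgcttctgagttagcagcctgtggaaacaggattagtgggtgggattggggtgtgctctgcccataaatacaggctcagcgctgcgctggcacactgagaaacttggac
Spdef, chr17:27728952-27729201, minus strand: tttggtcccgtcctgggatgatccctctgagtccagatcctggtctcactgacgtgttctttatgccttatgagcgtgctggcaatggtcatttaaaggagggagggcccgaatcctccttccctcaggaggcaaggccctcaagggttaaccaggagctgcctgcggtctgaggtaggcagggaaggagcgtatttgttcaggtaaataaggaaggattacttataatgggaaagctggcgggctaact

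Both strands were searched for TTCNNNGAA, a pair of STAT half-sites, and the same pair with one more base between its arms, for TGTTTAC (forkhead), TTGCNNAA (C/EBP), TGANTCA (AP-1), TATAAA and the NF-kB consensus. Among the 32851 promoter windows of the table, 7.02% held TTCNNNGAA, 5.85% the wider STAT pair, 3.17% TGTTTAC, 9.56% TTGCNNAA, 6.75% TGANTCA, 7.25% the NF-kB consensus and 12.4% TATAAA. The window of Slc26a4 held TATAAA, 31 to 26 bases before the start, and no other of these motifs. That of Lcn2 held the wider STAT pair, 156 to 147 bases before the start, and TTGCNNAA, 216 to 209 bases before it. The windows of Agr2 and Spdef held none of the 7. Of the windows not shown, that of Noxo1, the gene most alike Slc26a4, held none either. That of Ly6f held TTGCNNAA and TATAAA, and that of Ctsk TTGCNNAA. The window of Foxa3 held TATAAA and matches to the NF-kB consensus.

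Slc26a4 was the gene of this group that stood out after instillation. At day 1 its level was 5.56, 5.30, 4.78 and 6.25 in the 4 mice given 162 µg, against 1.57, 1.73, 2.26 and 2.35 in the 4 controls. Every mouse given 162 µg lay above every control. The change was 3.49 (SE 0.55), or 11.3-fold, with an adjusted p of 0.000575. At this dose and day 2 of the 6 tested members rose, Slc26a4 and Retnlb, and 1.69% of all genes tested were called, 1.5% higher and 0.194% lower. Retnlb was testable only through these 162 µg mice, so its place in this count was not independent of its change. The unprocessed signals show how far the Slc26a4 probe is from the limits of the scanner. Over the 36 arrays its Cy5 signal ran between 246 and 9182.5 units, with a local background of 67.5 to 89, and no spot on the arrays was saturated.

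At day 28 Slc26a4 was at 5.62, 5.90, 5.50 and 4.79 in the mice given 162 µg, against 2.54, 2.01 and 2.68 in the controls. These groups did not overlap either. The change was 3.04 (SE 0.60), or 8.24-fold, with an adjusted p of 0.0104. Slc26a4 was the 1 member of 6 called at this dose and day, when 0.628% of all genes were, 0.62% higher and 0.0086% lower. The change lay between 2.84 and 3.26 when any one mouse was left out, but the call was lost without control replicate 1 (adjusted p 0.0515) or control replicate 2 (adjusted p 0.0926).

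The level at 162 µg was nearly the same on the 2 days. The difference between the mice of day 28 and those of day 1 was -0.02, with a 95% interval of -1.16 to 1.12, and was not called (adjusted p 0.992). When each day was set against its own control, the change at day 28 was smaller than that at day 1 by 0.45 (adjusted p 1), and the interval ran from -2.13 to 1.23. One mouse given 162 µg, placed at day 28 by its time label, carried titles that named day 1. Without it the change at day 28 was 2.99 (adjusted p 0.0317), and with it moved to day 1 the change at day 1 was 3.52 (adjusted p 0.000865).

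**Figure D1:**
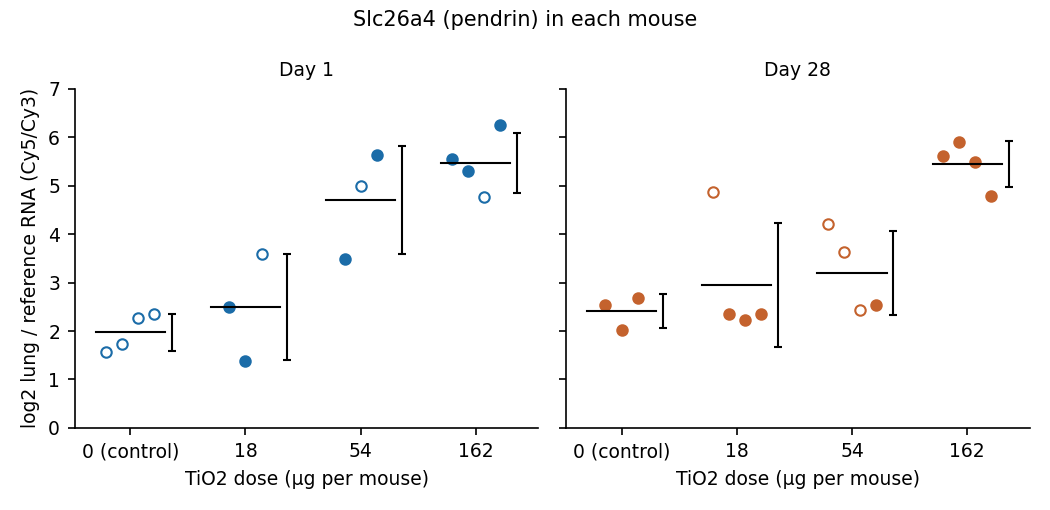
Slc26a4 level (log2 of lung Cy5 over reference Cy3) by dose in µg, with day 1 on the left and day 28 on the right. Each point is a mouse, open where one of its arrays carried skeletal muscle transcripts. Lines are means and bars SD (n = 3 or 4). All 4 mice given 162 µg lay above all controls on both days, and the 54 µg mice lay between 3.48 and 5.64 at day 1.

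The lower doses were less uniform. At 54 µg Slc26a4 stood at 3.48, 4.99 and 5.64 at day 1, above all 4 controls of that day. The change of 2.73 (SE 0.60), or 6.63-fold, did not pass the adjusted test (adjusted p 0.141, unadjusted p 0.000127, rank 21 among all genes). No member was called there and 1 of the 6 had an unadjusted p below 0.05, while 0.0516% of all genes were called. In 4 of the 16 other ways of processing that were tried, Slc26a4 was called in this comparison, and its adjusted p ran from 0.00622 to 0.851 over the 16. At day 28 the 4 mice given 54 µg had 4.22, 3.64, 2.43 and 2.53. A pair of them lay above all controls and the other pair lay among them. The change was 0.79 (SE 0.60, adjusted p 0.77), and 0 of 6 members and 0% of all genes were called. No member had an unadjusted p below 0.05 there. The change at 54 µg was lower at day 28 than at day 1 by 1.94 on the log2 scale in the estimate, which did not pass the test (adjusted p 0.489).

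Mice given 18 µg overlapped the controls. At day 1 they were at 2.49, 1.39 and 3.58, and at day 28 at 4.87, 2.36, 2.23 and 2.36. One mouse of each day lay above its controls by more than 1 log2 unit. The changes were 0.51 (95% interval -0.72 to 1.74, adjusted p 0.932) at day 1 and 0.54 (interval -0.69 to 1.78, adjusted p 0.915) at day 28. At this dose 0 of 6 members and 0% of all genes were called on either day, and no member had an unadjusted p below 0.05. Ordered by their means, the 8 groups ran 5.47 (162 µg, day 1), 5.45 (162 µg, day 28), 4.71 (54 µg, day 1), 3.20 (54 µg, day 28), 2.95 (18 µg, day 28), 2.49 (18 µg, day 1), 2.41 (control, day 28) and 1.98 (control, day 1). Each group overlapped its neighbours in that order.

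Doses were also set against each other. At day 28 the mice given 162 µg lay above those given 54 µg by 2.25 (SE 0.55, 4.76-fold, adjusted p 0.046), with no overlap, and 1.01% of all genes were called. This call was close to the threshold. Leaving out any one of 7 of the 8 mice moved the adjusted p past 0.05, to at most 0.21, and without replicate 1 at 54 µg it was 0.0256. At day 1 the 162 µg mice overlapped the 54 µg mice and the difference was 0.76 (95% interval -0.47 to 2.00, adjusted p 1.00), while 0.0043% of all genes were called. Against 18 µg, a comparison added after the values had been seen, 162 µg was higher by 2.98 at day 1 (adjusted p 0.00637) and by 2.50 at day 28 (adjusted p 0.021). Slc26a4 was the 1 member of 6 called in each, where 2.05% and 1.02% of all genes were called, 1.69% and 0.998% higher and 0.357% and 0.0172% lower. Between 54 and 18 µg no member was called on either day, with 1 and 0 at an unadjusted p below 0.05, and 0.0172% and 0% of all genes were called. The groups overlapped at day 28, where the lowest 162 µg mouse lay at 4.79 and the highest 18 µg mouse at 4.87.

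The controls of the 2 days differed for Slc26a4 by 0.43 (day 28 minus day 1, 95% interval -0.80 to 1.67, adjusted p 0.843). In that comparison 0 of 6 members and 0% of all genes were called. Within slides, where mice of both groups lay on one slide, the difference between 162 µg and control was positive on 5 of 5 slides at day 1 (2.52 to 4.61) and on 4 of 4 slides at day 28 (2.11 to 3.52). Slides 1 and 4 held the same mice in this count. Comparisons within a day share their controls, so their changes are not independent of each other.

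Skeletal muscle transcripts appeared on 12 of the 36 arrays, where the muscle list averaged a log2 Cy5 of 11.1 to 15.4, against at most 7.51 on the other arrays. At day 1 mice with such an array were 1 of 3 at 18 µg, 1 of 3 at 54 µg, 1 of 4 at 162 µg and 4 of 4 controls. At day 28 they were 1 of 4 at 18 µg, 3 of 4 at 54 µg, 0 of 4 at 162 µg and 0 of 3 controls. The highest 18 µg mouse of each day was among them, as was the lowest 162 µg mouse of day 1. Without the muscle arrays the change at 162 µg was 4.33 at day 1 (adjusted p 0.00349) and 3.04 at day 28 (adjusted p 0.00102). At day 1 this left 1 control array, at 1.37, taken to vary like the other groups. At 18 µg and day 28 the change became -0.09. Thyroid markers were listed because pendrin is a thyroid gene. Of the 7, 2 were bright enough to test, so the mean of the list lay mostly near background. At day 1 its mean log2 Cy5 lay between 6.35 and 6.57 at 162 µg and between 6.30 and 6.52 in controls. At day 28 it lay between 6.35 and 6.44 at 162 µg and between 6.27 and 6.37 in controls. Of its genes, Dio1 was well above background on 36 of the 36 arrays, Tg (thyroglobulin) on 31 and Iyd on 0. Their part in the level of Slc26a4 was not tested.

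Retnlb was the other member called, from much dimmer spots. Its probe was well above background on 4 of the 36 arrays, all from mice given 162 µg at day 1. The levels were 0.79, 0.56, 0.21 and 1.05 in these 4 mice, against -0.05, 0.07, 0.14 and -0.24 in the controls of that day. The groups did not overlap, though replicate 3 at 162 µg was not well above background. The change was 0.67 (SE 0.14, adjusted p 0.00953). Over the 16 other settings it ran from 0.52 to 3.03, so its size depended on the setting. Retnlb passed the filter on dim genes through the 162 µg mice of day 1 alone, so the filter was not independent of this change. With no filter the adjusted p was 0.0116. Since no control array measured the gene, only an approximate bound on its fold can be given. It was 1.48, set against the lowest signal that was well above background on the control arrays. This bound is not strict. The 162 µg mean includes replicate 3, whose log2 Cy5 of 6.41 was not well above background, so an unmeasured control could lie higher than assumed. The call was lost without 162 µg replicate 1 (adjusted p 0.0516) or replicate 4 (adjusted p 0.0585), with a fit on the compared groups alone (0.257), and with the mouse of conflicting labels placed at day 1 (0.153).

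Retnlb was not well above background on any array of the other 7 groups. At 162 µg its level was -0.10, -0.05, 0.00 and 0.00 at day 28, against 0.79, 0.56, 0.21 and 1.05 at day 1. All 4 mice of day 28 lay below all 4 of day 1. In this comparison, added after the values had been seen, Retnlb was the 1 member of 6 called and 1.78% of all genes were, 0.99% lower and 0.792% higher. No fold is given, since the gene was not measured above background at day 28 and was testable only through the day 1 mice. The difference between the changes of the 2 days against their own controls was -0.65 and did not pass (adjusted p 0.747), where 0 of 6 members and 0.0258% of all genes were called and 1 member had an unadjusted p below 0.05. The list of neutrophil markers had a mean log2 Cy5 of 9.57 to 9.96 on the 5 arrays of the day 1 162 µg mice. On the 5 control arrays of that day it was 8.56 to 9.64, which overlapped. At day 28, where Retnlb was at background, the list reached 10.8 at 162 µg, 10.8 at 18 µg and 10.1 in controls. The part of neutrophils in the change of Retnlb was not tested.

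Of the secretory products, Muc5b is the mucin of the resting mouse airway. At day 1 its level was 5.25, 4.52, 4.61 and 6.59 at 162 µg, against 3.50, 4.34, 5.42 and 5.59 in controls. At day 28 it was 5.45, 4.59, 5.10 and 3.45 at 162 µg, against 4.88, 5.29 and 2.74 in controls. Groups overlapped on both days. The changes were 0.53 (95% interval -0.68 to 1.73, adjusted p 0.773) and 0.34 (interval -0.96 to 1.64, adjusted p 1). With arrays that carried muscle transcripts left out, Muc5b passed at day 1, with a change of 3.66 (adjusted p 0.049). That fit had a single control array, taken to vary like the other groups. It read 1.80, with the lowest Cy5 signal for Muc5b of the 36 arrays, and the other array of that mouse read 5.21. At day 1 these 162 µg mice also lay above the 18 µg mice, at 3.77, 3.16 and 4.11, without overlap, by 1.56, which did not pass (adjusted p 0.281).

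Muc5ac, the mucin that marks goblet cells in allergic mice, was dimmer. Its level at day 1 was 1.54, 1.501, 0.58 and 4.64 at 162 µg, against 0.34, 0.21, 1.29 and 1.27 in controls. One mouse, replicate 4, stood far above the rest, and replicate 3 lay among the controls. The change of 1.28 (SE 0.59) had an adjusted p of 0.353, and without replicate 4 it was 0.43 (adjusted p 0.767). At day 28 the 162 µg mice were at 1.07, 0.85, 1.02 and 0.63, against 0.64, 0.94 and -0.00 in controls, which overlapped (change 0.36, adjusted p 1). The highest Muc5ac value of day 28 was 2.77, in an 18 µg mouse.

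Agr2, the folding enzyme, had the widest spread of the 7 genes. At day 1 it was at 2.37, 2.13, 1.44 and 6.30 in mice given 162 µg, against 1.64, 0.76, 3.57 and 3.57 in controls. Replicate 4 again stood highest while the other 3 lay within the range of the controls. The change was 0.68 (SE 0.93, adjusted p 0.828), and -0.40 without replicate 4. At day 28 it was at 2.80, 0.91, 1.87 and 0.66, against 2.16, 2.14 and 0.42, a change of -0.01 with a 95% interval of -2.09 to 2.06. The SD within groups, pooled over the 8 groups, was 1.40 for Agr2, 0.88 for Muc5ac, 0.88 for Muc5b, 0.83 for Slc26a4, 0.56 for Spdef and 0.20 for Retnlb.

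Of the transcription factors, Spdef was measured on all 36 arrays. At day 1 it was at 2.33, 2.27, 1.41 and 3.84 at 162 µg, against 1.37, 0.95, 2.52 and 2.36 in controls. The groups overlapped, and replicate 4 was once more the highest. The change was 0.66 (SE 0.37, adjusted p 0.474) at day 1 and 0.27 (SE 0.40, adjusted p 1) at day 28. Foxa3 was well above background on 3 of the 36 arrays, 1 each from a 54 µg mouse, a 162 µg mouse and a control mouse of day 1. Its ratio stayed between -0.18 and 0.65 over all 29 mice, and no fold is given because both groups lay at background on most arrays. At the lower doses none of these genes was called on either day. At 54 µg Muc5ac lay between 0.93 and 1.04 and Muc5b between 4.68 and 5.03 at day 1, the narrowest ranges of any group for both genes. At day 28 the 54 µg mice spread from 0.42 to 2.19 for Muc5ac and from 0.59 to 4.26 for Agr2, with replicate 3 the highest for both. At 18 µg and day 28 replicate 1, the mouse that was highest for Slc26a4, was also the highest of its group for Muc5ac at 2.77, Muc5b at 5.91, Spdef at 2.29 and Agr2 at 3.57. Fewer goblet cells and less RNA per goblet cell, or more of either, cannot be told apart in whole lung RNA.

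**Figure D2:**
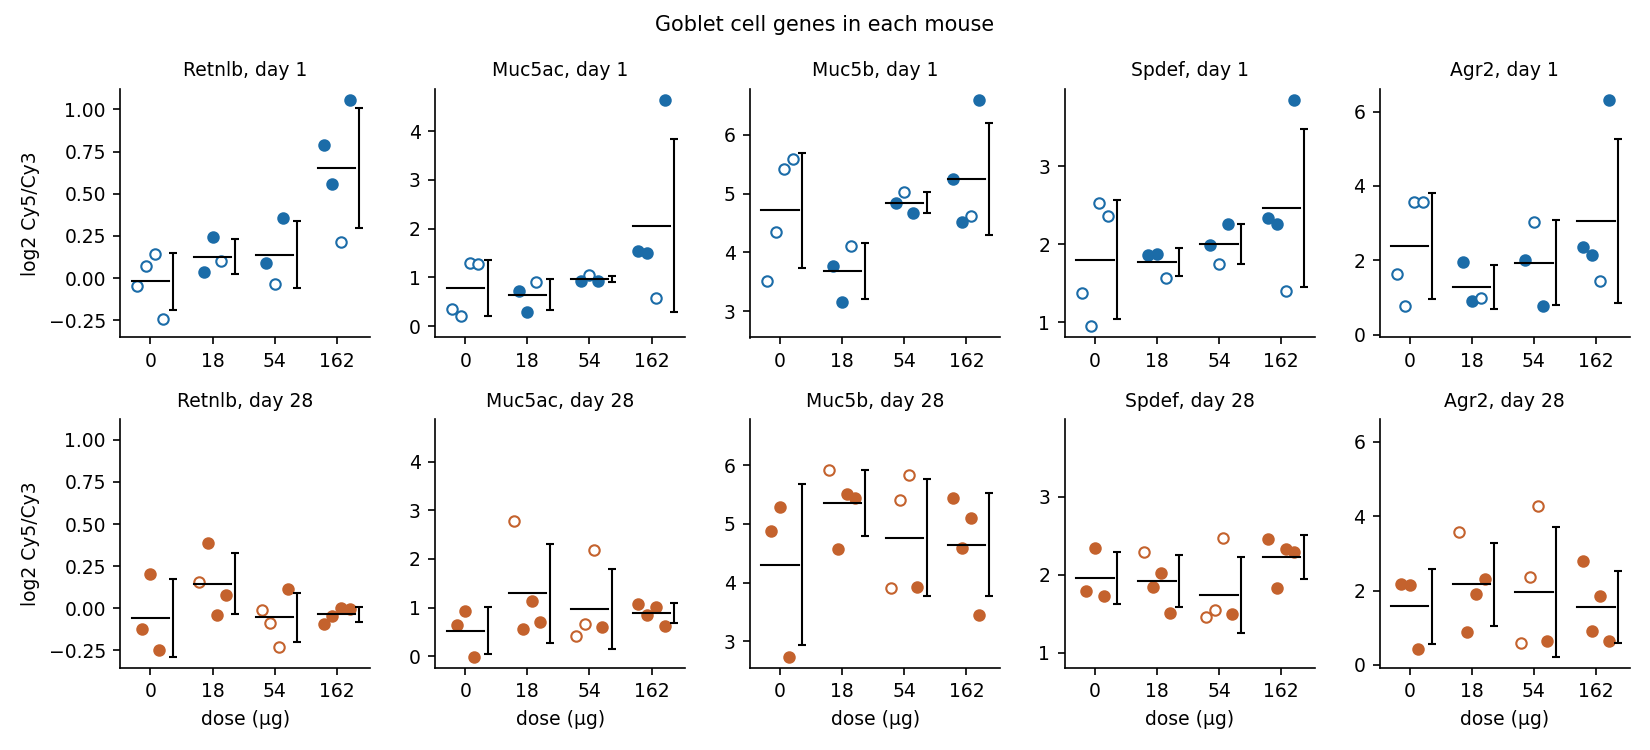
Levels (log2 Cy5/Cy3) of Retnlb, Muc5ac, Muc5b, Spdef and Agr2 by dose in µg, with day 1 above and day 28 below. Points are mice, open where an array carried muscle transcripts, with mean lines and SD bars (n = 3 or 4). Retnlb was raised in the 162 µg mice of day 1, and 1 mouse of that group (replicate 4) was the highest for Muc5ac at 4.64, Muc5b at 6.59, Spdef at 3.84 and Agr2 at 6.30.

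**Figure D3:**
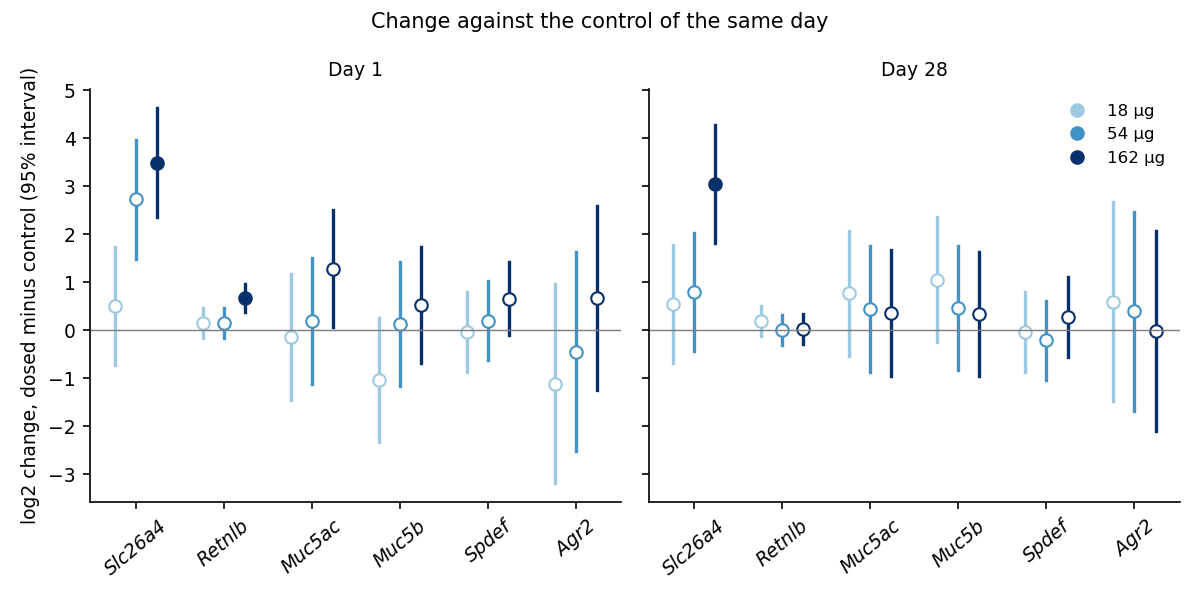
Change of each tested gene against the control of the same day (log2, dosed minus control) for 18, 54 and 162 µg. Bars are 95% intervals, and filled points passed the adjusted test. Filled points are Slc26a4 at 162 µg on both days (3.49 and 3.04) and Retnlb at 162 µg at day 1 (0.67). The intervals of Muc5b, Spdef and Agr2 include 0 throughout. At day 1 those of Slc26a4 at 54 µg (1.494 to 3.963) and Muc5ac at 162 µg (0.074 to 2.495) exclude 0, though their points are open.

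The 4 secretory genes Muc5ac, Muc5b, Spdef and Agr2 varied together across mice, also with the dose groups' means removed. Over the 29 mice Pearson's r between pairs of them ran between 0.58 (Muc5b with Spdef) and 0.86 (Muc5ac with Agr2). Within groups it was between 0.63 and 0.87. Slc26a4 was less tied to them, with r of 0.45 for Muc5ac, 0.44 for Spdef, 0.29 for Muc5b and 0.20 for Agr2. These correlations are descriptions: the mice share groups, slides and one reference RNA.

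**Figure D4:**
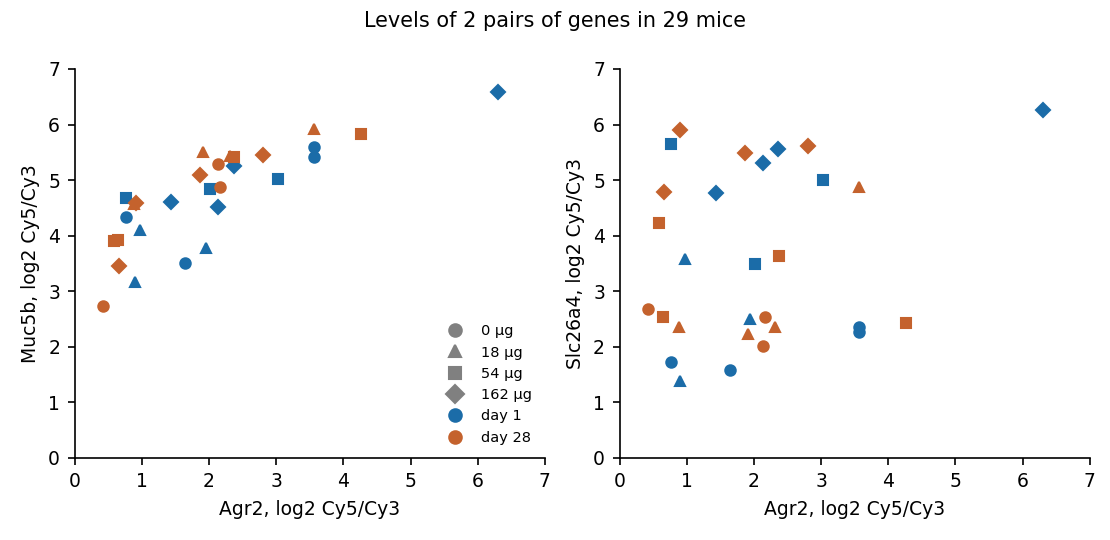
Muc5b against Agr2 on the left and Slc26a4 against Agr2 on the right, both as log2 Cy5/Cy3 in 29 mice. Shapes give the dose and colours the day. Muc5b and Agr2 were high in the same mice at all doses (r = 0.81), and Slc26a4 was tied less to Agr2 (r = 0.20).

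The genes that varied most like each member were also looked up among 15157 named genes. For Slc26a4 they were Noxo1, an organiser of the NADPH oxidase Nox1 (r = 0.94), Lcn2, the iron-scavenging lipocalin (0.93), Ly6f (0.91), Ctsk, the protease cathepsin K (0.91), and the neutrophil chemokine gene Cxcl5 (0.91), over 29 mice. At 162 µg their changes were 1.85, 2.42, 2.96, 0.78 and 2.41 at day 1, of which all but that of Ctsk were called. At day 28 they were 1.82, 2.00, 3.87, 1.22 and 2.99, all called. Of all genes 1.69% were called at 162 µg at day 1 and 0.628% at day 28. The genes were picked by likeness to Slc26a4 over these same 29 mice, so their calls are no separate support. For Muc5b the genes most alike were Bpifb1, a secreted airway protein (0.95), the trefoil peptide gene Tff2 (0.92) and AU040972 (0.86). For Agr2 they were Kcne3, a potassium channel subunit (0.92), AU040972 (0.90) and A2ml1 (0.90). None of these 5 genes was called at 162 µg on either day.

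Muc5ac was most like Chil4, a chitinase-like gene (0.92), Fcgbp, a mucus protein that binds IgG Fc (0.90), and 9530077C05Rik (0.87). Spdef was most like Slc13a2 (0.87), Vill (0.86) and 4930562C15Rik (0.85). Retnlb was most like Cebpe, a granulocyte transcription factor (0.85), the replication helicase gene Mcm2 (0.84) and Suv39h1 (0.82). Since Retnlb was well above background on 4 of the 36 arrays, all from mice given 162 µg at day 1, its r favoured genes raised in that group. Cebpe and Mcm2 were called at 162 µg at day 1, with changes of 0.91 and 1.19, and neither was called at day 28 (-0.08 and 0.01). Their calls at day 1 are thus no separate support.

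The 7 mice that had 2 arrays each, one on slide 1 and one on slide 4, show how far a level depended on the array. Whether both arrays carried the same RNA extract is not stated in the labels. For Slc26a4 the 2 arrays of a mouse differed by a median of 0.71 and at most 1.97. At day 1, replicate 1 at 162 µg read 5.99 and 5.12 on slides 1 and 4, and control replicate 1 read 1.37 and 1.77. The mice at 162 µg and the controls thus stayed apart whichever array was taken.

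Agr2 and Muc5b had wider differences, and the other secretory genes did not. Agr2 differed between the 2 arrays of a mouse by a median of 2.17 and at most 3.14, and Muc5b by a median of 0.80 and at most 3.42. Muc5ac differed by a median of 0.67 and at most 1.02, and Spdef by a median of 0.45 and at most 0.98. In the unprocessed Cy5 signal, Muc5b of the day 1 18 µg replicate 1 was 9915 on slide 1 and 579 on slide 4, while that of the day 1 control replicate 1 was 455.5 on slide 1 and 7247 on slide 4. Of the 7 mice, Muc5ac was higher on slide 4 in 6, Muc5b in 5, and Agr2 and Spdef in 4 each. A difference between the slides was not tested.

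Markers of several other cell types differed between the same arrays. On the slide 4 array of the day 1 control replicate 1, skeletal muscle markers were higher by 7.85, squamous epithelium markers by 6.60 and basal cell markers by 5.45 than on its slide 1 array (mean log2 Cy5). Club cell markers differed too. Their mean log2 Cy5 differed between slide 4 and slide 1 by -2.13 in the day 1 18 µg replicate 1, by 3.25 in the day 1 162 µg replicate 1 and by 3.27 in the day 1 control replicate 1. In the same mice Agr2 differed by -2.41, 3.14 and 2.17. The spread of the marker list lay in Bpifa1 (log2 Cy5 of 7.17 to 17.3 over the arrays) and Scgb3a1 (9.10 to 17.7), while the defining club cell gene Scgb1a1 stayed between 18.2 and 19.3. Over the 29 mice r with the club cell list was 0.75 for Muc5b and 0.71 for Agr2, and -0.17 for Slc26a4. With the submucosal gland list it was higher, at 0.865 for Muc5b and for Agr2, 0.68 for Muc5ac, 0.60 for Spdef and 0.26 for Slc26a4. The submucosal gland level was the mean of the 3 of its 4 genes that were on the arrays, Ltf, Dmbt1 and Smgc. Its spread lay mostly in Ltf, with a log2 Cy5 of 7.76 to 14.4 over the arrays. Dmbt1 ran from 6.00 to 7.64, and Smgc from 5.81 to 6.35, well above background on 0 of the 36 arrays. These r thus largely reflect Ltf. The level of the list lay between 7.45 and 9.02 on the 162 µg arrays of day 1 and between 6.63 and 9.04 on the control arrays. All 5 club cell markers were tested, and their level ranged from 12.1 to 15.7 on the 162 µg arrays of day 1 and from 12.4 to 16.3 on the control arrays of that day. The part of these cell types in the levels of the secretory genes was not tested.

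**Figure D5:**
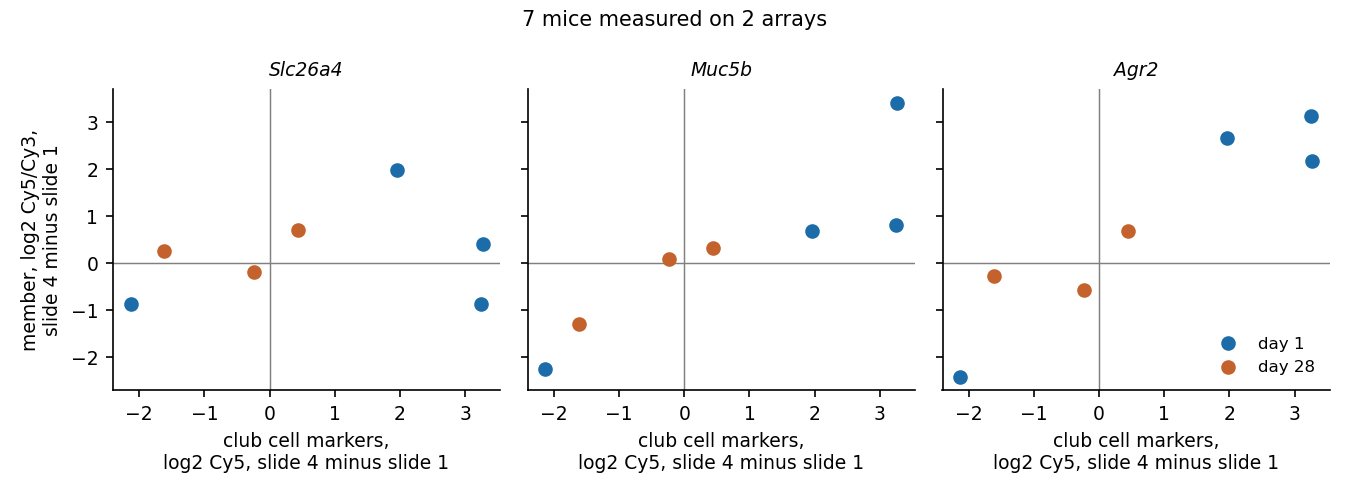
Difference between the 2 arrays of each of 7 mice (slide 4 minus slide 1) for Slc26a4, Muc5b and Agr2 (log2 Cy5/Cy3, vertical) against that of the club cell markers (mean log2 Cy5, horizontal). Points are mice, coloured by day. Agr2 differed by up to 3.14 and Muc5b by up to 3.42, Agr2 in the direction of the markers in all 7 mice and Muc5b in all but 1, and Slc26a4 differed by at most 1.97.

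The reference channel also sets limits on these ratios. Cy3 was well above background on all 36 arrays for Slc26a4, Muc5b and Spdef, on 21 for Muc5ac, and on 3 for Agr2. The reference RNA was the same on every array, yet the Cy3 signal of the Muc5b spot was 1097 on the array where its Cy5 signal was highest (78541) and 106 where it was lowest (455.5). Spearman's rho between the 2 channels of that spot was 0.96 over the 36 arrays, against 0.51 for Slc26a4. The log2 ratio of Muc5b thus covered a smaller range over mice, 2.74 to 6.59, than its log2 Cy5 level, 9.59 to 16.4. With log2 Cy5 used alone, an alternative added after the values had been seen, Slc26a4 and Retnlb were called at 162 µg at day 1 as before, and Muc5b changed by 1.00 (adjusted p 0.812).

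The wider list of mucus and goblet cell products held 23 genes, of which 15 were tested. At 162 µg 0 of 15 were called on either day, with limma's test, when 1.69% (day 1) and 0.628% (day 28) of all genes were. With so few genes, 0 of 15 cannot be told from those shares. At day 1 and day 28, 4 and 0 of the 15 had an unadjusted p below 0.05, as had 3011 and 1112 of all 23244 genes. The median change of the list was 0.375 at day 1 and 0.00387 at day 28, against 0.00651 and 0.000398 over all genes. Muc4, a membrane-bound mucin, had a change of 1.08 at day 1 (adjusted p 0.348), and Clca1, a secreted goblet cell protein, one of 1.00 (adjusted p 0.879). The level of Clca1 ran from 2.63 to 9.89 in the 4 mice given 162 µg and from 2.37 to 4.86 in the 4 controls, a gene chosen for mention after its values were seen. Tff3, Muc2 and Gcnt3 were well above background on 0 of the 36 arrays.

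Regulators of the airway secretory lineage gave no call at 162 µg either. None of the 20 tested was called at day 1, with 3 at an unadjusted p below 0.05, and none at day 28, with 2. Of all 23244 genes 1.69% and 0.628% were called, and 3011 and 1112 had an unadjusted p below 0.05. The medians of the list were -0.0158 and -0.0785. Foxa2, a repressor of goblet cell genes, changed by -0.01 at day 1 (adjusted p 0.995), and Hbegf, a ligand of the EGF receptor, by 0.89 (adjusted p 0.0839).

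The interleukin-4 and interleukin-13 list is of interest because these cytokines drive goblet cell genes and pendrin. Il4, Il13, Il9 and Il25 were well above background on 0 of the 36 arrays. Of the 18 genes tested, 1 rose at 162 µg at day 1, when 1.5% of all genes did. This was Il33, an epithelial alarmin, at 2.45 ± 0.65 at 162 µg and 1.29 ± 0.24 in controls (SD, n = 4 each), a change of 1.16 (SE 0.25, adjusted p 0.0133). At day 28 its change was 0.57 (adjusted p 1) and 0 of 18 were called, with 2 at an unadjusted p below 0.05. The receptor chain Il4ra changed by 0.63 (adjusted p 0.117) and Stat6, the factor downstream of it, by -0.13 (adjusted p 0.748) at day 1. At day 1, 6 of the 18 had an unadjusted p below 0.05, as had 3011 of all 23244 genes. At day 28 1112 of all genes had one, and 0.628% were called. Among genes not called at day 1, Ccl24 averaged -0.22 at 162 µg and -1.77 in controls, and Gata3 -2.05 and -1.36. The median of the list was 0.278 at day 1 and -0.0702 at day 28.

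In the interleukin-17 list 3 of 8 tested genes rose at 162 µg at day 1 and 2 of 8 at day 28, when 1.5% and 0.62% of all genes did. Lcn2 averaged 4.20 ± 0.38 at 162 µg and 1.78 ± 0.10 in controls at day 1 (SD, n = 4 each), a change of 2.42 (SE 0.29, adjusted p 3.15e-05). At day 28 its change was 2.00 (SE 0.32, adjusted p 0.00159). Cxcl5 changed by 2.41 (SE 0.44, adjusted p 0.00247) and 2.99 (SE 0.47, adjusted p 0.00159). The third gene at day 1 was Cxcl1 (adjusted p 0.0368), whose spot was dim, with a mean log2 Cy5 of 7.20 at 162 µg and 6.40 in controls. At 54 µg and day 1 Lcn2 (2.16, adjusted p 0.0038) and Cxcl5 (2.46, adjusted p 0.0471) rose as well, with 0.0516% of all genes. The tested genes not called at day 1 ran from -0.17 (Nfkbiz, adjusted p 0.684) to 0.26 (Il17ra, adjusted p 0.517) at 162 µg. The mean of Nfkbiz was below that of controls at day 28 too. The median of the list was 0.18 at day 1 and 0.128 at day 28. Il17a and Il17f themselves were well above background on 2 and 3 of the 36 arrays, and Il17c, Csf3 and Ccl20 on 0. Like the others, this list was chosen with earlier results of these data known.

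At 162 µg 1.5% of all genes rose at day 1 and 0.62% at day 28. Among its own family Slc26a4 was the 1 gene of 7 tested that rose, on both days. The others lay between -0.78 (Slc26a1, adjusted p 0.385) and 0.27 (Slc26a11, adjusted p 0.42) at day 1. Slc26a9, another chloride transporter of the airway, was at 3.44 ± 0.23 at 162 µg and 3.34 ± 0.34 in controls of day 1 (SD, n = 4 each; adjusted p 0.894). Of all 23244 genes 1.69% and 0.628% were called at 162 µg on the 2 days, and 3011 and 1112 had an unadjusted p below 0.05. None of 15 tested genes of airway ion transport was called at 162 µg on either day, with 1 and 0 at an unadjusted p below 0.05. They included Cftr, the chloride and bicarbonate channel (0.21, adjusted p 0.733), Ano1 (0.15, adjusted p 0.777) and the epithelial sodium channel subunit Scnn1a (-0.14, adjusted p 0.77) at day 1. Duoxa2, the maturation factor of the peroxide-producing oxidase Duox2, was well above background on 1 of the 36 arrays, and Duox1 on 7.

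The other 3 genes of the resistin family were well above background on all 36 arrays. None was called at 162 µg at day 1, when 1.69% of all genes were. Retnla, the resistin-like gene of macrophages and airway epithelium, was at 6.38 ± 0.77 at 162 µg and 5.93 ± 0.30 in controls of day 1 (SD, n = 4 each; adjusted p 0.651). Retnlg, of neutrophils, changed by 0.96 (adjusted p 0.38) and Retn by -1.44 (adjusted p 0.642). At day 1, 2 of the 4 had an unadjusted p below 0.05, among them Retnlb, which was testable only through the 162 µg mice of that day. At day 28 none of the 4, Retnlb included, was called, and none had an unadjusted p below 0.05. On that day 0.628% of all genes were called.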

How the data were processed

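Lung RNA of 29 mice was measured on 36 two-colour Agilent arrays of 55681 probes; 7 mice had 2 arrays. The deposited scanner files hold the median Cy5 and Cy3 intensity of each spot and its local background, extracted with Agilent Feature Extraction 11.0.1.1, per the file headers. The same deposited files hold the scanner software's background-subtracted and dye-normalized log10 ratio of Cy5 over Cy3. A deposited series table holds the authors' normalized log2 ratios, whose normalization method is not given in the sources used here. Against loess-normalized log2 ratios of their arrays with no background subtraction, its columns had correlations of 0.993 to 0.999 and slopes of 0.986 to 0.998, which sets direction and scale, and had medians of -0.039 to -0.017, which leaves centring unknown.

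Intensities were background-corrected (normexp, offset 50) and loess-normalized within arrays with limma 3.58.1 in R 4.3.3, leaving control and outlier spots out. Spots of a probe and arrays of a mouse were averaged, and the brightest probe stood for a gene. A gene was tested if, in some group, 3 or more mice had its Cy5 spot well above background on all their arrays, which left 23244 of 36799. The model gave each group its own mean, over 29 mice. A spot well above background on no array of a group gave only an approximate bound, and no spot was saturated. Between 48.5% and 62.1% of probes were well above background per array, and the number of arrays limits the precision. The fit was tested on simulated data.

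Mice were grouped by their time and dose labels; titles of one 162 µg mouse conflict with its time label. The labels speak of 5 mice per group, and 3 or 4 per group were analysed here. Members and gene lists were chosen with earlier results of these data known. The text names the 7 members, called genes of each list, up to 4 in each direction by size and 4 by intensity, and the genes most correlated with each member. Alternatives changed background, normalization, filter, slide, repeat arrays, samples and weights. Comparisons of 162 with 18 µg and of 162 µg between days, log2 Cy5 alone, and fits without the slide 1 or repeat slide 4 arrays were added after the data were seen.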

Additional observations from a re-analysis of the deposited data

Results flagged for a closer look

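In 4 of 35 sets of mice tested (a gene in a group of 4 mice), the highest or lowest mouse stood apart from the others by a share of the range above Dixon's 95% critical value, which chance gives in about 1 in 20 groups. At day 28 these were Slc26a4 at 4.87 in 18 µg replicate 1, Muc5ac at 2.19 and Spdef at 2.47 in 54 µg replicate 3, each the highest of its group. The fourth was Foxa3 at 0.0208 in 54 µg replicate 1, the lowest of its group and not above background. All 3 mice had an array with skeletal muscle transcripts, whose part in these values was not tested.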

How the results depend on the processing

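Over 16 other settings, and with each mouse left out, no tested change past the threshold turned its direction. The call of Slc26a4 at 162 µg held at day 1 in all 16 settings (3.29 to 4.33, the highest from the fit with 1 control array) and without any one mouse, and at day 28 in all 16 (2.90 to 3.20). The number of members called at 162 µg against control at day 1 was 1, with Retnlb lost, in a fit on the compared groups alone and when the 162 µg mouse whose labels conflict was counted at day 1. It was 3, with Muc5b, without the muscle arrays, a fit that has 1 control array at day 1 and takes its spread from the other groups, and 1 to 2 with a mouse left out. At day 28 it was 0 to 1 with a mouse left out. At 54 µg against control at day 1 it was 1, Slc26a4, with median centring, muscle and squamous covariates, array weights or without the slide 1 arrays. For 162 against 54 µg at day 28 it was 0 with the scanner's log ratio, no filter on dim probes, the compared groups alone, no muscle arrays, that mouse left out or counted at day 1, or no slide 4 repeats, and 0 to 1 with a mouse left out. For 162 against 54 µg at day 1 it was 1, Retnlb, with all arrays and the mouse as a random block or with array weights, and 0 to 1 with a mouse left out. For the difference between days at 162 µg it was 1, Retnlb, with array weights. Where samples or genes were changed by construction the tests had fewer or more of them; elsewhere the cause was not tested. A second probe per gene was not run, since each member has 1. No paired analysis was possible because the replicate numbers only follow accession order and pair no mice. Spots of Retnlb and Foxa3 near background limit what their ratios can show.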
